A study of Sus scrofa with 6 samples.

Results

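The enzymes that begin the breakdown of the branched-chain amino acids, together with glutamine synthetase and the alanine and aspartate aminotransferases, were examined by RNA-seq in longissimus dorsi, a back muscle, from 3 UCP1 KI pigs and 3 WT pigs. The group was a list of 10 genes taken by their pig Ensembl symbols, namely *BCAT2*, *BCKDHA*, *BCKDHB*, *DBT*, *BCKDK*, *PPM1K*, *GLUL*, *GPT*, *GPT2* and *GOT1*, out of 30476 genes in the count table. Identifiers were found for 8 of them, and 7 had enough reads to be tested. *GLUL* and *GPT* had no identifier under their symbols in the gene name table, so they were not analysed here, and *GPT2* was measured but stood below the filter on low counts. All pigs were 6 months old, and each gave 1 library. The UCP1 KI pigs carried a knocked-in uncoupling protein gene meant to act in adipocytes, and the WT pigs carried none. *UCP1* had no identifier under its symbol, and the genotype labels were not checked. Its reads could not have served for this, since the authors found no *UCP1* mRNA in muscle of either group. The sex of the pigs, their litters and the number of founders were not given in the sources used here.

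Leucine, isoleucine and valine are broken down mainly outside the liver, and skeletal muscle is a main site of the first step. In mitochondria the aminotransferase BCAT2 moves the amino group to alpha-ketoglutarate and leaves a branched-chain keto acid. The branched-chain keto acid dehydrogenase complex, BCKDH, then removes the carboxyl group in a step that cannot be reversed. BCKDK phosphorylates and inactivates the complex, and the phosphatase PPM1K removes that phosphate. The amino groups collected on glutamate leave muscle as alanine, made by GPT or GPT2, or as glutamine, made by GLUL, while GOT1 passes amino groups between glutamate and aspartate in the cytosol.

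Counts on genes summed to between 30220951 and 35066624 per pig, and CPM below is edgeR's normalised read count, the gene's counts in relation to the library total after scaling by TMM factors, which were lowest for WT replicate 2, at 0.781, and highest for UCP1 KI replicate 2, at 1.18. A gene was called where edgeR's quasi-likelihood test gave an unadjusted p under 0.05 and the absolute log2 fold change, UCP1 KI against WT, was above 0.5. Of 13402 genes tested, 8.19% were called, 3.84% as higher and 4.34% as lower in the UCP1 KI group. With Benjamini-Hochberg adjustment 0 genes stayed under 0.05 in edgeR, where 1100 had an unadjusted p under 0.05, whereas DESeq2 on the same genes gave 127. The tissue label was met by its markers, since *ACTA1* ran from 30310 to 55970 CPM and *ALB* was at most 0.469 CPM, although the myosin heavy chain genes had no identifier under their symbols.

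None of the 7 member genes tested differed between UCP1 KI and WT muscle beyond the spread between pigs. Of the 7 members tested, 0 were called and 0 had an unadjusted p under 0.05, against the 8.19% of all tested genes that were called, and DESeq2 and limma-voom also called 0. The UCP1 KI and WT pigs overlapped for each of these 7 genes, whereas 15.3% of all tested genes had groups without overlap, 7.59% with the UCP1 KI pigs above and 7.69% with them below the WT pigs. Log2 fold changes ran from -0.41 for *BCKDHB* to 0.49 for *BCKDK*, with a median of 0.08, and the median over all tested genes was -0.02. The smallest adjusted p among the members was 0.694, for *BCKDK*. The median absolute log2 fold change was 0.13 over the 7 members and 0.33 over all genes tested. The SD between pigs of a group, on the log2(CPM + 1) scale, had a median of 0.45 over the 7 members and 0.33 over all tested genes. The added 1 lowers this SD for genes at low CPM, so the 2 medians are not strictly comparable.

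**Figure D1:**
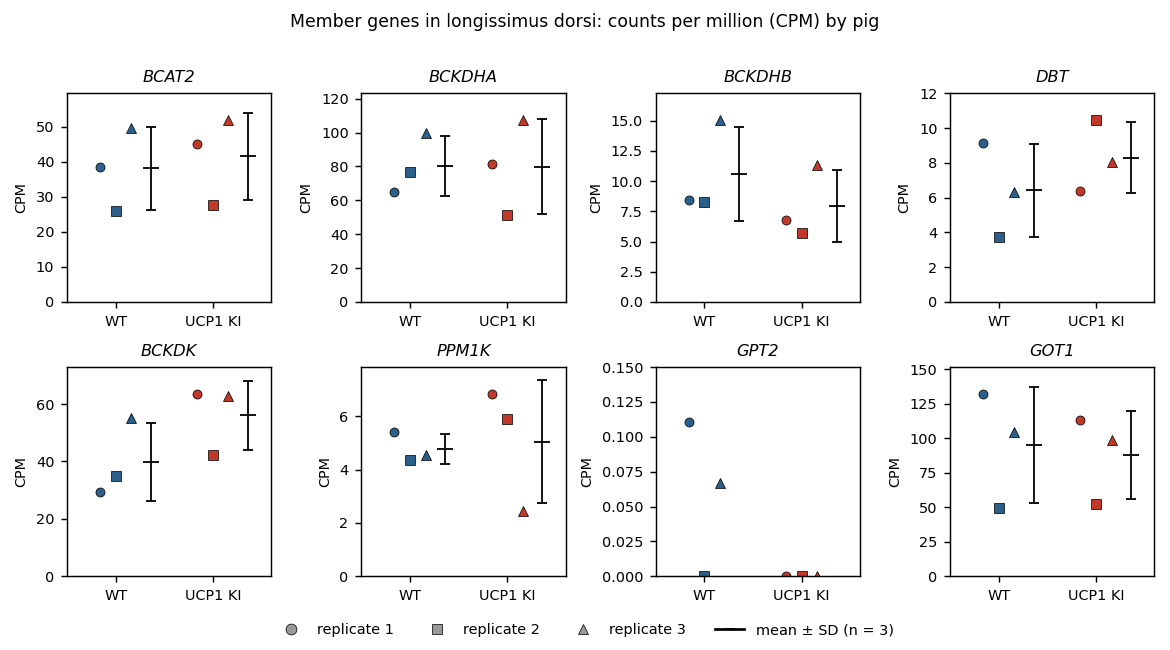
Each panel plots 1 member gene in CPM on an axis that starts at 0, with a symbol for each pig and, beside the symbols, the mean and SD over 3 pigs (not drawn for *GPT2*, which had at most 4 counts). The UCP1 KI and WT pigs overlap in every panel, as for *BCKDHA*, whose means were 79.9 and 80.4 CPM.

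*BCAT2* (ENSSSCG00000003139), the mitochondrial aminotransferase that starts the pathway, was at 45.1, 27.7 and 51.9 CPM in UCP1 KI replicates 1 to 3 and at 38.6, 25.9 and 49.7 CPM in WT replicates 1 to 3. Replicate 2 was the lowest pig and replicate 3 the highest in both groups, and the ranges lay almost over each other. The UCP1 KI mean was 41.6 ± 12.5 CPM (SD, n = 3), beside a WT mean of 38.1 ± 11.9 CPM (SD, n = 3). The log2 fold change was 0.13 (standard error, SE, 0.33, 95% interval -0.65 to 0.90), with an adjusted p of 0.929 from edgeR. In fold terms the interval ran from 0.637 to 1.87. The value turned to -0.06 when UCP1 KI replicate 3 was left out and to -0.09 when WT replicate 2 was. In the RefSeq annotation of Sscrofa11.1, the build listed in the submitters' processing notes, *BCAT2* spans 54107682 to 54123595 on chromosome 6. A long noncoding RNA gene, LOC106510565, covers 3897 bases of that span. The strand setting of the read counting was not given in the sources used here, so reads of these 2 genes may not be separable.

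The BCKDH complex is built from an E1 decarboxylase of 2 kinds of subunit, BCKDHA and BCKDHB, an E2 transacylase core made by *DBT*, and the E3 subunit DLD, which other dehydrogenase complexes share. *BCKDHA* (ENSSSCG00000028794, chromosome 6, 49381995 to 49398745) was at 81.2, 51.1 and 107 CPM in the UCP1 KI group and at 64.8, 76.7 and 99.6 CPM in the WT group. The lowest and the highest of the 6 pigs were both UCP1 KI pigs, so the WT range lay within the UCP1 KI range. The UCP1 KI mean of 79.9 ± 28.2 CPM (SD, n = 3) met a WT mean of 80.4 ± 17.7 CPM (SD, n = 3), with a log2 fold change of -0.01 (SE 0.32, 95% interval -0.76 to 0.75). This interval corresponds to folds from 0.590 to 1.68, so a change of up to that size in either direction was not detectable with these pigs.

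*BCKDHB* (ENSSSCG00000004465, chromosome 1, 85755819 to 86017661) had the lowest fold change of the members. Its values were 6.79, 5.69 and 11.3 CPM in the UCP1 KI group and 8.41, 8.29 and 15.0 CPM in the WT group. Replicate 3 stood above the other pigs in each group, and UCP1 KI replicate 3 was higher than both remaining WT pigs. The log2 fold change was -0.41 (SE 0.37, 95% interval -1.28 to 0.45), with an adjusted p of 0.776 from edgeR. It kept its sign with each pig left out, between -0.76 and -0.07.

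*DBT* (ENSSSCG00000006866, chromosome 4, 117884657 to 117924006) ordered the pigs differently. It was at 6.37, 10.5 and 8.05 CPM in the UCP1 KI group and at 9.12, 3.76 and 6.34 CPM in the WT group. UCP1 KI replicate 2, the lowest pig for *BCKDHA* and *BCKDHB*, was the highest for *DBT*, and WT replicate 2 was the lowest. The log2 fold change of 0.37 (SE 0.37, 95% interval -0.50 to 1.24) had an adjusted p of 0.804 from edgeR and ranged from 0.10 to 0.71 over the fits that leave out a pig.

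The switch enzymes of the complex were next compared. *BCKDK* (ENSSSCG00000007763, chromosome 3, 17375628 to 17380925), the inactivating kinase, was at 63.4, 42.2 and 62.7 CPM in the UCP1 KI group and at 29.4, 35 and 55.0 CPM in the WT group. Each UCP1 KI pig was above WT replicates 1 and 2, and WT replicate 3 fell between UCP1 KI replicate 2 and the other UCP1 KI pigs. The means of 56.1 ± 12.0 CPM (SD, n = 3) and 39.8 ± 13.4 CPM (SD, n = 3) gave the highest log2 fold change of the members, 0.49 (SE 0.31, 95% interval -0.22 to 1.21). Its unadjusted p was 0.15 and its adjusted p 0.694 in edgeR, and the two-sided exact permutation test on log2(CPM + 1) gave p = 0.2, where 3 pigs against 3 cannot go below 0.1. Without WT replicate 3 *BCKDK* was called, with a log2 fold change of 0.80 and p values of 0.0292 unadjusted and 0.426 adjusted in edgeR. With library size only it was 0.75 and was not called.

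*PPM1K* (ENSSSCG00000038867, chromosome 8, 130748207 to 130772936), the phosphatase that reactivates the complex, was at 6.82, 5.89 and 2.44 CPM in the UCP1 KI group and at 5.40, 4.35 and 4.54 CPM in the WT group. UCP1 KI replicate 3, with 92 counts, was the lowest pig, and the other UCP1 KI pigs were above all WT pigs. The SD was 2.31 CPM in the UCP1 KI group and 0.563 CPM in the WT group. A log2 fold change of 0.08 (SE 0.40, 95% interval -0.85 to 1.02) had an adjusted p of 0.966 from edgeR. The value turned negative, to -0.19, without UCP1 KI replicate 1 and was 0.42 without UCP1 KI replicate 3.

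**Figure D2:**
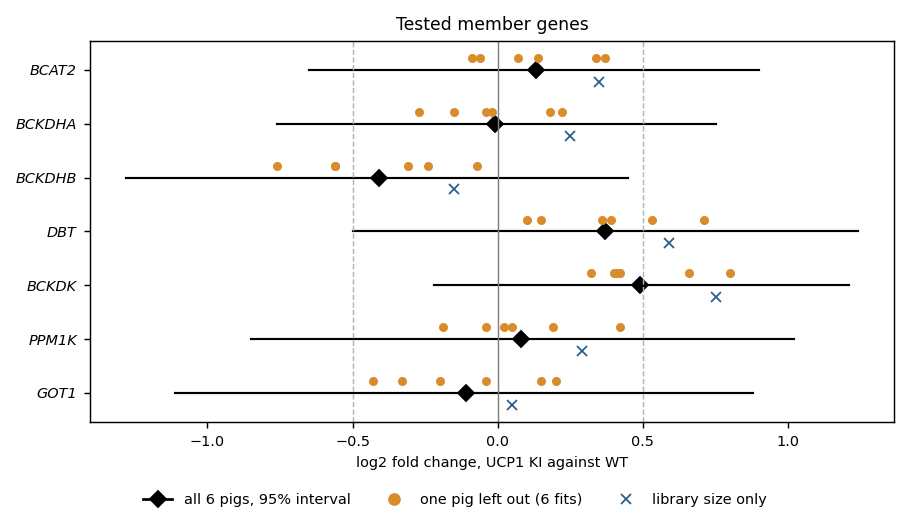
The log2 fold change of UCP1 KI against WT is plotted on the horizontal axis for the 7 tested members, as diamonds with 95% intervals from edgeR, with points for the 6 fits that leave out a pig, crosses for scaling by library size only, and dashed lines at the limits of -0.5 and 0.5. All 7 intervals include 0, and the left-out points of *BCAT2*, *BCKDHA*, *PPM1K* and *GOT1* fall on both sides of it.

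The aminotransferases of the alanine and aspartate steps follow. *GPT2* (ENSSSCG00000002847, chromosome 6, 37625428 to 37669695), the mitochondrial alanine aminotransferase, had 0, 0 and 0 counts in the UCP1 KI group and 4, 0 and 2 counts in the WT group. These are at or near the limit of 3 counts that a count of 0 allows, which was 0.0795 to 0.11 CPM and covers counting error only. At such counts no difference could be detected, and no fold is given. With *GPT* (RefSeq span 297747 to 302498 on chromosome 4) not found by symbol, alanine synthesis was seen through this gene alone. *GLUL* (RefSeq span 123751551 to 123762575 on chromosome 9) was likewise not analysed.

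*GOT1* (ENSSSCG00000010537, chromosome 14, 110608422 to 110635825), the cytosolic aspartate aminotransferase, was at 113, 52.0 and 98.7 CPM in the UCP1 KI group and at 132, 49.3 and 104 CPM in the WT group. Replicate 2 was far below the other pigs in both groups, and the remaining pigs lay close together. It had the widest spread among the tested members, with an SD within groups of 0.66 on the log2(CPM + 1) scale, against 0.40 to 0.46 for the other 6. The log2 fold change was -0.11 (SE 0.43, 95% interval -1.11 to 0.88), with an adjusted p of 0.952 from edgeR. It was 0.20 without WT replicate 1 and 0.15 without UCP1 KI replicate 2.

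The position of the pigs within their groups was shared by several members. UCP1 KI replicate 2 was the lowest UCP1 KI pig for 5 of the 7 tested members, and WT replicate 2 was the lowest WT pig for 5 of 7, whereas WT replicate 3 was the highest WT pig for 4. UCP1 KI replicate 2 also had the lowest level of the fast fibre troponin gene *TNNT3*, at 4144 CPM against 11940 to 27930 CPM in the other 5 pigs. It was also the lowest pig for the fast fibre genes *TNNI2* and *ACTN3*, but not for *ATP2A1*, for which WT replicate 1 was lowest. WT replicate 2 was the lowest of the 6 pigs for the slow fibre genes found, with *TNNI1* at 456 CPM, *TNNT1* at 1179 CPM and *ATP2A2* at 168 CPM. The summed level of the 9 muscle fibre genes found ran from 57210 to 104500 CPM in the UCP1 KI group and from 80480 to 124100 CPM in the WT group. The 20 most abundant genes held 39.0% to 44.0% of the counts in the UCP1 KI group and 44.5% to 56.5% in the WT group, with the latter in WT replicate 2. The part of fibre composition and of these abundant genes in the members' levels was not tested. Fewer cells of a type and less RNA per cell cannot be told apart in such bulk samples.

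To compare members without any scaling factor, the ratio of the counts of 2 genes was taken within each library. Such ratios carry the lengths of the genes, so they are compared between pigs only. Of 8 ratios planned, 6 could be formed, and UCP1 KI and WT pigs overlapped in all 6. The ratio of the kinase to the phosphatase, *BCKDK* to *PPM1K*, was 9.25, 7.14 and 25.5 in the UCP1 KI group and 5.42, 8 and 12.0 in the WT group. UCP1 KI replicate 3 held the highest ratio, and the other UCP1 KI pigs lay within the WT range. The difference on the log2 scale was 0.56 (two-sided exact permutation test, p = 0.5, adjusted p = 0.6 over 6 ratios), and it was 0.01 without UCP1 KI replicate 3.

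Within E1, *BCKDHA* to *BCKDHB* was 11.9, 8.94 and 9.45 in the UCP1 KI group and 7.69, 9.22 and 6.60 in the WT group. The means were 10.1 ± 1.58 (SD, n = 3) and 7.84 ± 1.31 (SD, n = 3), and WT replicate 2 overlapped the UCP1 KI pigs (log2 difference 0.37, exact permutation p = 0.2). The E2 to E1 ratio, *DBT* to *BCKDHA*, spread 4.14-fold over the 6 pigs, with WT replicate 2 lowest at 0.0495 and UCP1 KI replicate 2 highest at 0.205. In contrast, *DLD* to *BCKDHA* spread 1.6-fold, between 1.01 and 1.61, and *BCAT2* to *BCKDHA* 1.76-fold, between 0.338 and 0.596. For comparison, *BCAT2* alone spread 2-fold and *BCKDHA* alone 2.1-fold in CPM. The cytosolic to mitochondrial aspartate aminotransferase ratio, *GOT1* to *GOT2*, was 1.11, 0.494 and 0.715 in the UCP1 KI group and 1.17, 0.716 and 1.16 in the WT group, a log2 difference of -0.43 (exact permutation p = 0.2). The smallest adjusted p over the 6 ratios was 0.4 by the exact test.

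**Figure D3:**
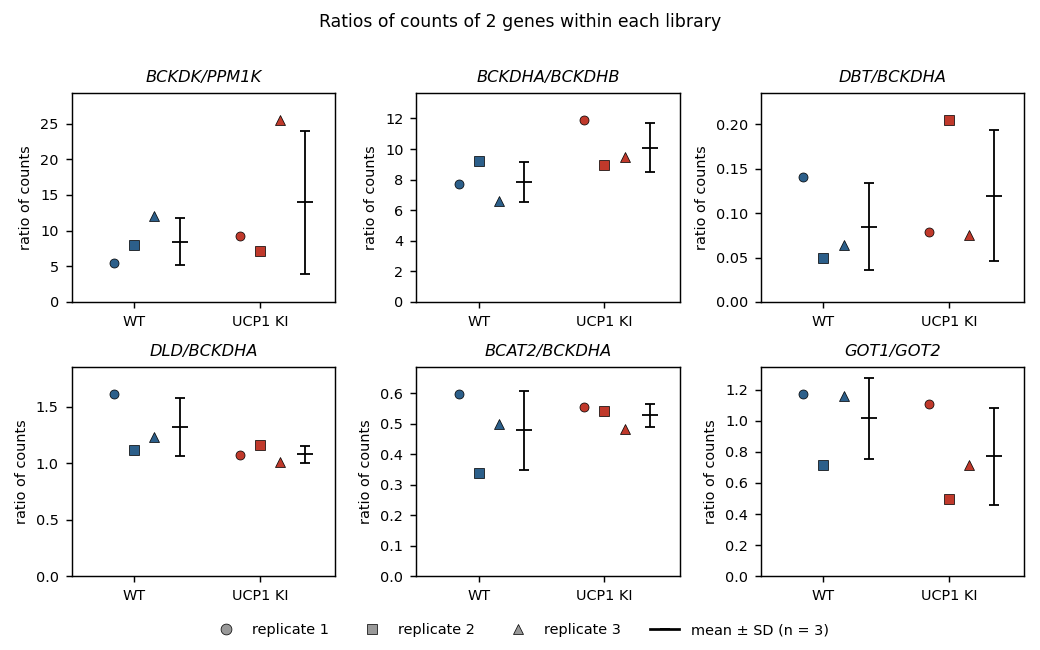
Each panel plots the ratio of counts of 2 genes in each pig, on an axis from 0, with the mean and SD over 3 pigs beside the symbols. The groups overlap in every panel, and UCP1 KI replicate 3 stands apart for *BCKDK* to *PPM1K* at 25.5.

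The genes around the members were read from 8 lists of the pathway, in which 81 of 86 genes were found and 73 tested. Of these, 7 were called as higher and 1 as lower in the UCP1 KI group, against a background of 3.84% and 4.34% of all tested genes, and 0 had an adjusted p under 0.05 in edgeR. Among 18 tested enzymes of branched-chain carbon oxidation, 1 was called and the median log2 fold change was -0.05. This was *MMUT*, the methylmalonyl-CoA mutase at the end of the valine and isoleucine routes, with 12.9, 17.1 and 18.8 CPM in the UCP1 KI group and 10.4, 6.03 and 12.3 CPM in the WT group. Its groups did not overlap, although by a small margin, and the log2 fold change of 0.76 (SE 0.32) had an unadjusted p of 0.0478 from edgeR. *MMUT* was not called without UCP1 KI replicate 2 or 3 or without WT replicate 1 or 2. The next in size were *HIBADH*, of valine breakdown, at 0.72, and *BCAT1*, the cytosolic counterpart of *BCAT2*, at -0.54, and neither was called.

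Carriers of branched-chain and other neutral amino acids included 2 called genes among 8 tested, with a list median of 0.41. Without UCP1 KI replicate 3 the median was 0.19, without WT replicate 1 it was 0.05, and 0 carriers were called in either case, whereas the median was 0.68 without WT replicate 3 and 0.79 with library size only. *SLC3A2*, the heavy chain that partners the leucine carrier SLC7A5, was at 76.0, 118 and 165 CPM in the UCP1 KI group and at 23.7, 31.6 and 87.4 CPM in the WT group. It rose by a log2 fold change of 1.33 (SE 0.53, unadjusted p 0.0376 in edgeR), and the groups overlapped through WT replicate 3. Without that pig the log2 fold change was 2.12, and without WT replicate 1 it was 1. SLC7A5 itself had a log2 fold change of 0.49 and was not called. *SLC38A2*, a sodium-coupled carrier of small neutral amino acids such as glutamine and alanine, was at 186, 244 and 164 CPM in the UCP1 KI group and at 314, 304 and 296 CPM in the WT group. Every UCP1 KI pig was below every WT pig, a log2 fold change of -0.62 (SE 0.25, unadjusted p 0.0391 in edgeR). The call of *SLC3A2* was lost without UCP1 KI replicate 2 or 3 or WT replicate 1 or 2, and that of *SLC38A2* in 8 of 15 alternatives, with -0.36 under library size only. *SLC43A2* and *SLC7A8*, other carriers of large neutral amino acids, had log2 fold changes of 0.92 and 0.67 and were not called. UCP1 KI replicate 3 was the highest pig for both, with *SLC43A2* at 196 CPM there against 88.9 and 60.8 CPM in the other UCP1 KI pigs, and *SLC7A8* at 157 CPM against 30.9 and 42.6 CPM. WT replicate 3 was the highest WT pig for both. WT replicates 1 to 3 were at 43.3, 54.9 and 84.7 CPM for *SLC43A2* and at 7.61, 26.1 and 111 CPM for *SLC7A8*.

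In the lists of glutamate and glutamine handling (9 tested, median 0.05), other aminotransferases (6 tested, median 0.38) and the malate-aspartate shuttle with pyruvate supply (8 tested, median -0.04), 0 genes were called and 0 had an unadjusted p under 0.05 in edgeR. *GLUD1*, which releases ammonia from glutamate, was at 83.5 to 101 CPM in the UCP1 KI group and 54.9 to 78.0 CPM in the WT group, without overlap, and its log2 fold change of 0.50 had an unadjusted p of 0.0653 from edgeR. *CAD*, of pyrimidine synthesis, was at 0.39. *GOT2*, the mitochondrial partner of *GOT1*, was at 0.34 with overlapping groups. The largest values of the other aminotransferases were -1.12 for *PSAT1*, of serine synthesis, and 0.73 for *ABAT*, of GABA breakdown, both under 5 CPM in every pig. *OAT*, of the same list, was at 27.0 to 33.6 CPM in the UCP1 KI group and 20.4 to 24.8 CPM in the WT group, without overlap. Its log2 fold change of 0.42 had an unadjusted p of 0.0935 from edgeR. In the list of the shuttle with pyruvate supply the largest values were -0.86 for *LDHA*, lactate dehydrogenase, and -0.79 for *SLC25A12*, an aspartate-glutamate carrier. *LDHA* was at 246 CPM in UCP1 KI replicate 2, against 893 to 2637 CPM in the other pigs.

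The purine nucleotide cycle, by which muscle releases ammonia from AMP, had 1 called gene of 5 tested. *AMPD3* was at 12.6, 102 and 154 CPM in the UCP1 KI group and at 33.4, 16.7 and 21.9 CPM in the WT group. UCP1 KI replicate 1 was below all WT pigs, so the log2 fold change of 1.90 (SE 0.77, unadjusted p 0.0392 in edgeR) rested on the other 2 UCP1 KI pigs, and it was 2.42 without UCP1 KI replicate 1 and 1.24 without UCP1 KI replicate 3. The call was lost there, without UCP1 KI replicate 2 and without any of the WT pigs. It was also lost with limma-voom, at 1.32 and an unadjusted p of 0.164, and in edgeR with a replicate block, at 1.54 and an unadjusted p of 0.171. *AMPD1*, the main muscle form, was at 0.23 and *AMPD2* at -0.51, and neither was called.

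Of 11 tested transcription factors and coactivators known to act on these pathways, 3 were called, against 8.19% of all tested genes. Each of the called genes had groups that did not overlap. In the list, 5 of 11 had groups without overlap, against 15.3% of all tested genes. *SREBF1*, higher, and *NR3C1*, lower, were apart without being called. The forkhead factor *FOXO1* was at 46.3, 68.0 and 85.6 CPM in the UCP1 KI group and at 21.1, 27.8 and 38.4 CPM in the WT group, a log2 fold change of 1.2 (SE 0.33, unadjusted p 0.00683 in edgeR). *FOXO3*, its relative, rose by 0.84 and *CEBPB*, a bZIP factor, by 1.41 on the log2 scale. The call of *FOXO3* was lost, at 0.60, 0.81 and 0.68, when UCP1 KI replicate 2 or either of WT replicates 1 and 2 was missing, and those of *FOXO1* and *CEBPB* were kept in all 15 alternatives. *KLF15*, a factor known for driving *BCAT2* and alanine aminotransferase in muscle, was at 6.28 to 16.5 CPM in the UCP1 KI group and 8.44 to 15.1 CPM in the WT group, a log2 fold change of -0.14 with overlapping groups. *NR3C1*, the glucocorticoid receptor, was at -0.86, with UCP1 KI replicate 1 at 4.62 CPM, the other UCP1 KI pigs at 38.0 and 31.7 CPM and the WT pigs at 41.3 to 50.1 CPM, and *ESRRA*, of mitochondrial gene control, at 0.62, and neither was called. In the list of amino acid sensors upstream of mTORC1, 1 of 8 tested genes was called. This was *CASTOR2*, a relative of the arginine sensor CASTOR1 and no sensor of leucine, at 61.6, 90.4 and 178 CPM in the UCP1 KI group and 28.1, 26.0 and 50.0 CPM in the WT group, a log2 fold change of 1.66 (SE 0.45, unadjusted p 0.00668 in edgeR). The leucine-linked sestrins *SESN1* and *SESN2* were at 1.42 and 1.17 and were not called. *SESN1* was far apart within the UCP1 KI group, at 21.7, 136 and 319 CPM, against 20.8 to 104 CPM in WT pigs. *SESN2* was at 12.5, 5.30 and 3.05 CPM in that group, against 1.88 to 4.67 CPM in WT pigs, with UCP1 KI replicate 1 the highest pig. DESeq2 on the same genes gave adjusted p values of 0.000223 for *CEBPB* and 0.0476 for *CASTOR2*, and above 0.05 for the other pathway genes.

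**Figure D4:**
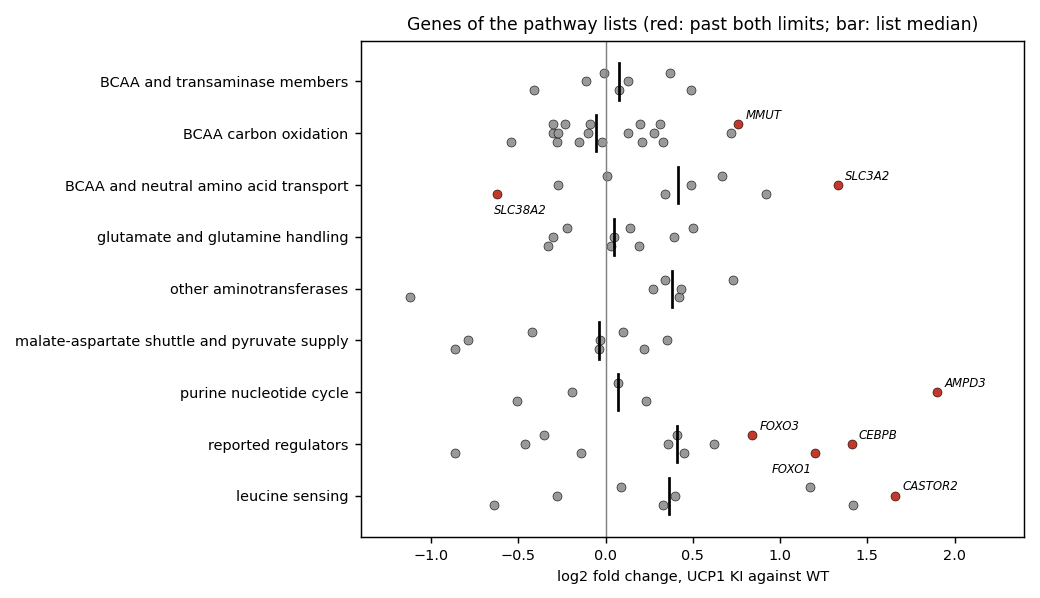
Points are the log2 fold changes of UCP1 KI against WT for the tested genes of the members and of the 8 pathway lists, in red and named where past both limits, and bars are list medians. The members lie between -0.41 and 0.49 with 0 called, and 7 of the 8 called pathway genes lie to the right of 0.

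**Figure D5:**
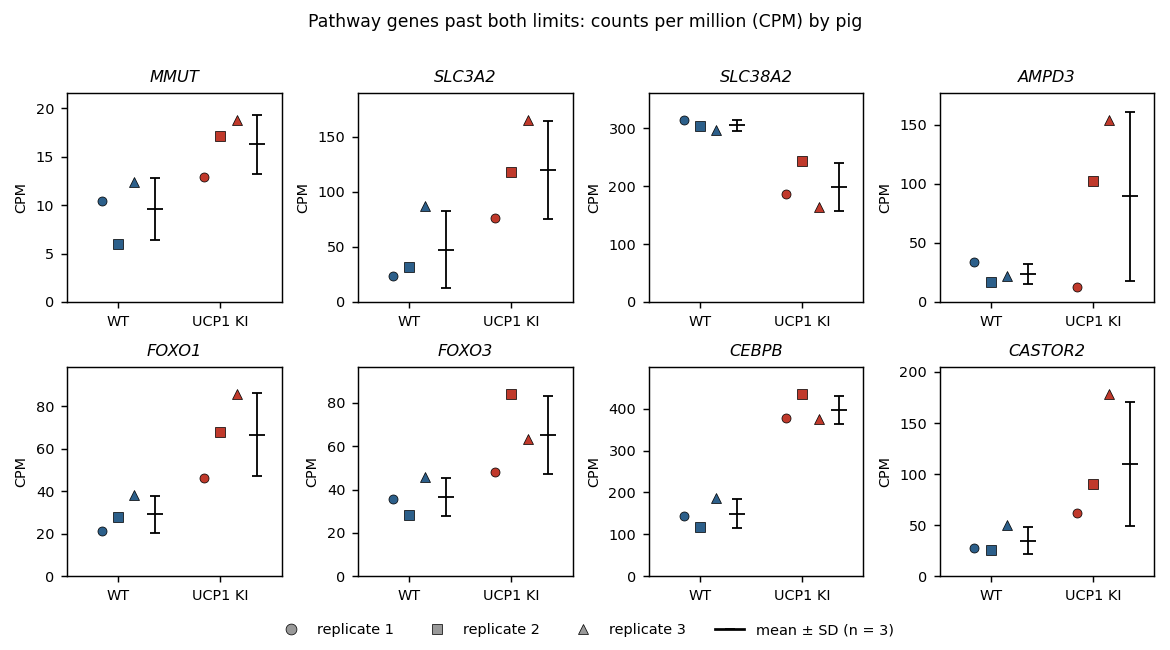
The 8 called pathway genes are plotted in CPM for each pig, with the mean and SD over 3 pigs beside the symbols. Groups overlap for *SLC3A2* and *AMPD3* and are apart for the other 6.

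Markers of other cell types were read beside these values. Of 6 fibroblast genes tested, 4 were called as lower in the UCP1 KI group, against 4.34% of all tested genes. The called genes were the collagens *COL1A1*, *COL1A2* and *COL3A1*, and *LUM*. *PDGFRA*, with a log2 fold change of -0.08, and *DCN*, at -0.39, were not called. The summed level of the 6 genes was 235 to 435 CPM in the UCP1 KI group and 742 to 1187 CPM in the WT group. The 3 red blood cell genes found summed to 11.4 to 75.8 CPM in the UCP1 KI group and 104 to 179.5 CPM in the WT group, with 0 of 2 tested genes called. Adipocyte genes, at 62.5 to 209 CPM against 71.6 to 364 CPM, leukocyte genes, at 99.2 to 184 CPM against 101 to 142 CPM, endothelial genes, at 304 to 552 CPM against 271 to 518 CPM, and Schwann cell genes, at 51.2 to 60.4 CPM against 49.6 to 65.0 CPM, overlapped between the groups. Of these lists, 0 of 6 adipocyte, 2 of 7 leukocyte, 1 of 5 endothelial and 0 of 3 Schwann cell genes tested were called. Those called were higher, against 3.84% of all tested genes called as higher. Hepatocyte genes summed to 8.05 to 27.4 CPM in the UCP1 KI group and 29.6 to 73.3 CPM in the WT group, nearly all of it *APOA1*, which was called as lower, and *ALB* was at 0 in 4 of 6 pigs. The part of these cell types in the called genes was not tested.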

How the data were processed

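Longissimus dorsi RNA from 3 UCP1 KI and 3 WT pigs was sequenced, 1 library per pig. The authors trimmed reads with Trimmomatic 0.36, mapped them with HISAT2 2.0, computed expression values with StringTie 1.3.3b and deposited raw counts per Ensembl gene, without normalization. The submitters' notes list the build Sscrofa11.1 and also bedtools 2.26.0. Which program wrote the raw counts, its strand setting and the annotation release were not given in the sources used here. Totals were 30220951 to 35066624 counts, and 0 columns were left unused.

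Counts were fitted in R 4.3.3 with edgeR 4.0.16 (filterByExpr defaults, TMM factors, condition only, two-sided quasi-likelihood F test). Standard errors are the log2 fold change divided by the square root of F, and 95% intervals use the test's degrees of freedom. The fit was tested on simulated data. Exact permutation tests enumerated 20 assignments, on log2(CPM + 1) or, for ratios, log2 of counts with 1 added. Labels do not tie replicates to litters, and p-values measure the spread between these pigs.

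Gene names were looked up in an Ensembl table for pig, positions from RefSeq spans matched by symbol. No exon lengths were at hand, so levels are not compared between genes. Named genes were all members found, and per pathway list every called gene and the 2 next in size, with ratio partners. *KLF15*, *SREBF1*, *OAT*, *MCCC1*, *IVD* and SLC7A5 were added after values were seen. The members and lists were chosen with earlier results of these data known. Alternatives were DESeq2 1.42.0, limma-voom (limma 3.58.1), other scalings and filters, a replicate block and each pig left out.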

Additional observations from a re-analysis of the deposited data

How the results depend on the processing

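With each pig left out, the number of genes past both limits lay between 678, where UCP1 KI replicate 2 was missing, and 1541, where WT replicate 3 was, with 718 for WT replicate 2. Members called ranged from 0 to 1, the latter *BCKDK* without WT replicate 3. Called pathway genes ranged from 5 (when UCP1 KI replicate 2 was left out, and likewise for WT replicates 1 and 2) to 14 (without WT replicate 3). In the other alternatives 0 members and 7 to 10 pathway genes were called. Library size only gave 929 higher and 195 lower genes, and the total without the 20 most abundant genes 624 and 439, in place of 515 and 582; the former raised the median of all genes from -0.02 to 0.24 and made 6 of 7 members positive in place of 4. *BCKDHA* (-0.01) was 0.25 with library size only, 0.05 with the total without abundant genes and 0.01 with all genes that had any count. *PPM1K* (0.08) was -0.07 with limma-voom, and *GOT1* (-0.11) was 0.05 with library size only. With each pig left out, *BCAT2* lay between -0.09 and 0.37, *BCKDHA* between -0.27 and 0.22, *PPM1K* between -0.19 and 0.42, *GOT1* between -0.43 and 0.20, and the log2 difference of *BCAT2* to *BCKDHA* between -0.05 and 0.36. The cause of these turns was not tested. *BCKDHB*, *DBT* and *BCKDK* kept their signs in all 15 alternatives.

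The replicate number as a block gave 1114 genes, 0 members and 10 pathway genes, among them 4 of the 8 tested carriers in place of 2, with *PPM1K* at -0.03, and *AMPD3* lost its call at 1.54. Correlations of same-numbered pigs were 0.00, 0.09 and 0.28, the last being the highest of all pairs. They were taken on values centred on means of 3 pigs, so they cannot show whether same-numbered pigs shared more than a number. UCP1 KI replicate 1 correlated best with WT replicate 2, at 0.13. Per-length levels and the coding length alternative were not run, for want of exon lengths, nor were the ratios with *GPT* and *GLUL*. With 3 pigs a group, the members' 95% intervals reached folds as low as 0.412 and as high as 2.36, which limits what could be detected.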

Other observations

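UCP1 KI replicate 1 had the lowest level of the 6 pigs for some genes next to the members, of which *IVD* and *NR3C1* were picked after their values were seen. It was also the lowest for other genes of the lists, *AMPD3*, at 12.6 CPM, and *MCCC1*, at 99.1 CPM, among them. *IVD*, the isovaleryl-CoA dehydrogenase of leucine breakdown, was at 6.86 CPM in that pig, with 212 counts, and at 19.8 to 72.3 CPM in the other 5 pigs. *NR3C1* was at 4.62 CPM there, with 143 counts, and at 31.7 to 50.1 CPM in the others. Among the members, UCP1 KI replicate 1 was the lowest UCP1 KI pig for 1 of the 7 tested members and the highest for 3.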
